A study of Homo sapiens with 40 samples.

Results

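Antigen processing and presentation genes supply peptides to class I molecules of the major histocompatibility complex (MHC), and 10 of them were followed here through treatment with inhibitors of phosphoinositide 3-kinase (PI3K). They are B2M, HLA-E, TAP1, TAP2, TAPBP, PSMB8, PSMB9, PSMB10, ERAP1 and ERAP2, and they were chosen with earlier results of these data known. Every probe set whose only gene symbol was one of these was taken, whatever its values. The rule found 27 of the 41091 probe sets that carry 1 symbol, for 10 of the 19775 genes that such probe sets name. A2058, an established human melanoma line, received a single treatment of 24 hours, and its total RNA was hybridised to 40 one-colour arrays, 4 biological replicates in each of 10 groups. The series compares 3 compounds that inhibit PI3K, the lipid kinase upstream of AKT, to find how their effects on expression differ.

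BKM120 (buparlisib, an inhibitor of class I PI3K) was dosed at IC30, at IC50 and at a top level called IC90 (max). BEZ235 (dactolisib, an inhibitor of both PI3K and the kinase mTOR) was given at IC50, IC90 and max, and so was GDC0941 (pictilisib, an inhibitor of class I PI3K), which the labels spell GCD0941. The control cells received the solvent DMSO. All groups are the same line in the same medium. The labels state neither molar concentrations nor the response behind the IC names, so levels of the same name need not be equal doses. A single line was used, and nothing in the labels says how separate its biological replicates were, so p-values measure the spread between these samples alone.

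Class I molecules show peptides from inside the cell to CD8 T cells and natural killer cells. The proteasome cuts proteins into peptides, and in its immunoproteasome form the subunits PSMB8, PSMB9 and PSMB10 replace the constitutive PSMB5, PSMB6 and PSMB7. TAP1 and TAP2 form the transporter that carries peptides into the endoplasmic reticulum, TAPBP (tapasin) bridges that transporter to waiting class I molecules, ERAP1 and ERAP2 trim the peptides, and B2M is the light chain shared by class I heavy chains such as HLA-E. Interferons are the best known inducers of the pathway, through IRF factors that bind interferon-stimulated response elements (ISRE) and through the coactivator NLRC5, and tumours often show it at a low level.

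Sequences 250 bases upstream of annotated starts were available for 9 of the 10 genes, in 13 windows (RefSeq, GRCh38.p14). Both strands were searched for 4 motifs: the ISRE letters (GAAA and GAAA with any 2 bases between), the GAS letters TTCNNNGAA bound by STAT dimers, the kappaB letters (GGG and TTTCC with any 2 bases between) and the FOXO letters TGTTTAC, FOXO factors being restrained by AKT. The ISRE letters were present in 6 of the 13 windows, each of a different gene, against 3.02% of 35116 promoter windows of the same length. Gene positions below are of the same build. The 6 stretches are shown because they hold the sequence feature most of these genes share. Each line gives 100 bases on the gene's strand, with the ISRE letters in capitals (in TAP1 they lie on the opposite strand).
B2M, chr15:44711331-44711430, plus strand: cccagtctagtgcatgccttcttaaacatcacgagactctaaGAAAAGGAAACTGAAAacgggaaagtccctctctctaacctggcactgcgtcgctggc
TAP1, chr6:32853781-32853880, minus strand: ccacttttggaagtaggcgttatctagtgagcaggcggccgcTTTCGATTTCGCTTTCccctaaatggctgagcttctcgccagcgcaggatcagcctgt
TAP2, chr6:32838743-32838842, minus strand: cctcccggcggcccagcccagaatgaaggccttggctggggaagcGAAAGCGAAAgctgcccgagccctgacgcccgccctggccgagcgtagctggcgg
TAPBP, chr6:33314079-33314178, minus strand: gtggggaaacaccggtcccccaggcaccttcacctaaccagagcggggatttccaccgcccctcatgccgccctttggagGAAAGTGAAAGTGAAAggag
PSMB10, chr16:67936851-67936950, minus strand: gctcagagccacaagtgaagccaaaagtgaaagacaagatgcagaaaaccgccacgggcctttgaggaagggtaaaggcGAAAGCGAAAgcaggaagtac
ERAP2, chr5:96876400-96876499, plus strand: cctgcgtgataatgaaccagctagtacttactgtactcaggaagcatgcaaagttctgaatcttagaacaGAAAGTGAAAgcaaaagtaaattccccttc

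In B2M, TAP1 and TAPBP 2 matches overlap. These 3 windows also hold the kappaB letters, which 1.73% of all windows hold. The GAS letters occur in 2 of the 13 windows, of PSMB8 and TAP1, against 6.57% of all windows, and the FOXO letters in none of the 13 windows, against 2.98%. A match is a run of letters, and binding was not measured. TAP1 and PSMB9 lie head to head on chromosome 6 with 487 bases between their annotated starts, so their upstream windows overlap in part. ERAP1 and ERAP2 are neighbours on chromosome 5 whose annotated spans overlap on opposite strands.

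Values are log2(signal + 16) of the deposited array signals. Each gene is described by its lead probe set, the brightest one that is not a cross-hybridising design where the gene has another, and all 10 lead probe sets passed the filter on dim probe sets. Of the 27 probe sets, 23 passed, and 1 each of B2M, TAPBP, ERAP1 and ERAP2 did not. A gene is said to have risen or fallen where the adjusted p was under 0.05 (limma over 24654 probe sets, Benjamini-Hochberg within each comparison). Every probe set is compared with itself only, since brightness differs between probes of equal target. The array named BEZ235 IC50 replicate 3 stands apart: its ACTB signal was 4.65 higher (log2) at the 3′ than at the 5′ end, against 0.66 to 1.21 in the other 39 arrays. Tested changes of the 10 genes that rest on it are therefore given also from a fit of 39 arrays. As for the label of the cells, 11 of 11 melanocyte markers on the array were above the filter, while 2 of 14 immune markers on it were (LYZ and FCER1G). The defining immune marker PTPRC (CD45) was below the filter. Of 14 epithelial, endothelial and fibroblast markers 8 were above it, among them LUM and KRT18 with mean values of 10.22 and 10.01. The summed signal of the 14 immune markers was 155 to 242.4 at BEZ235 max, 197.7 to 222.8 at BEZ235 IC90 and 220.1 to 259.1 at GDC0941 max, against 252.7 to 332.5 in DMSO, so it was not higher in the groups with the most rises. Bulk RNA cannot tell less RNA per cell from fewer cells that make it.

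**Figure D1:**
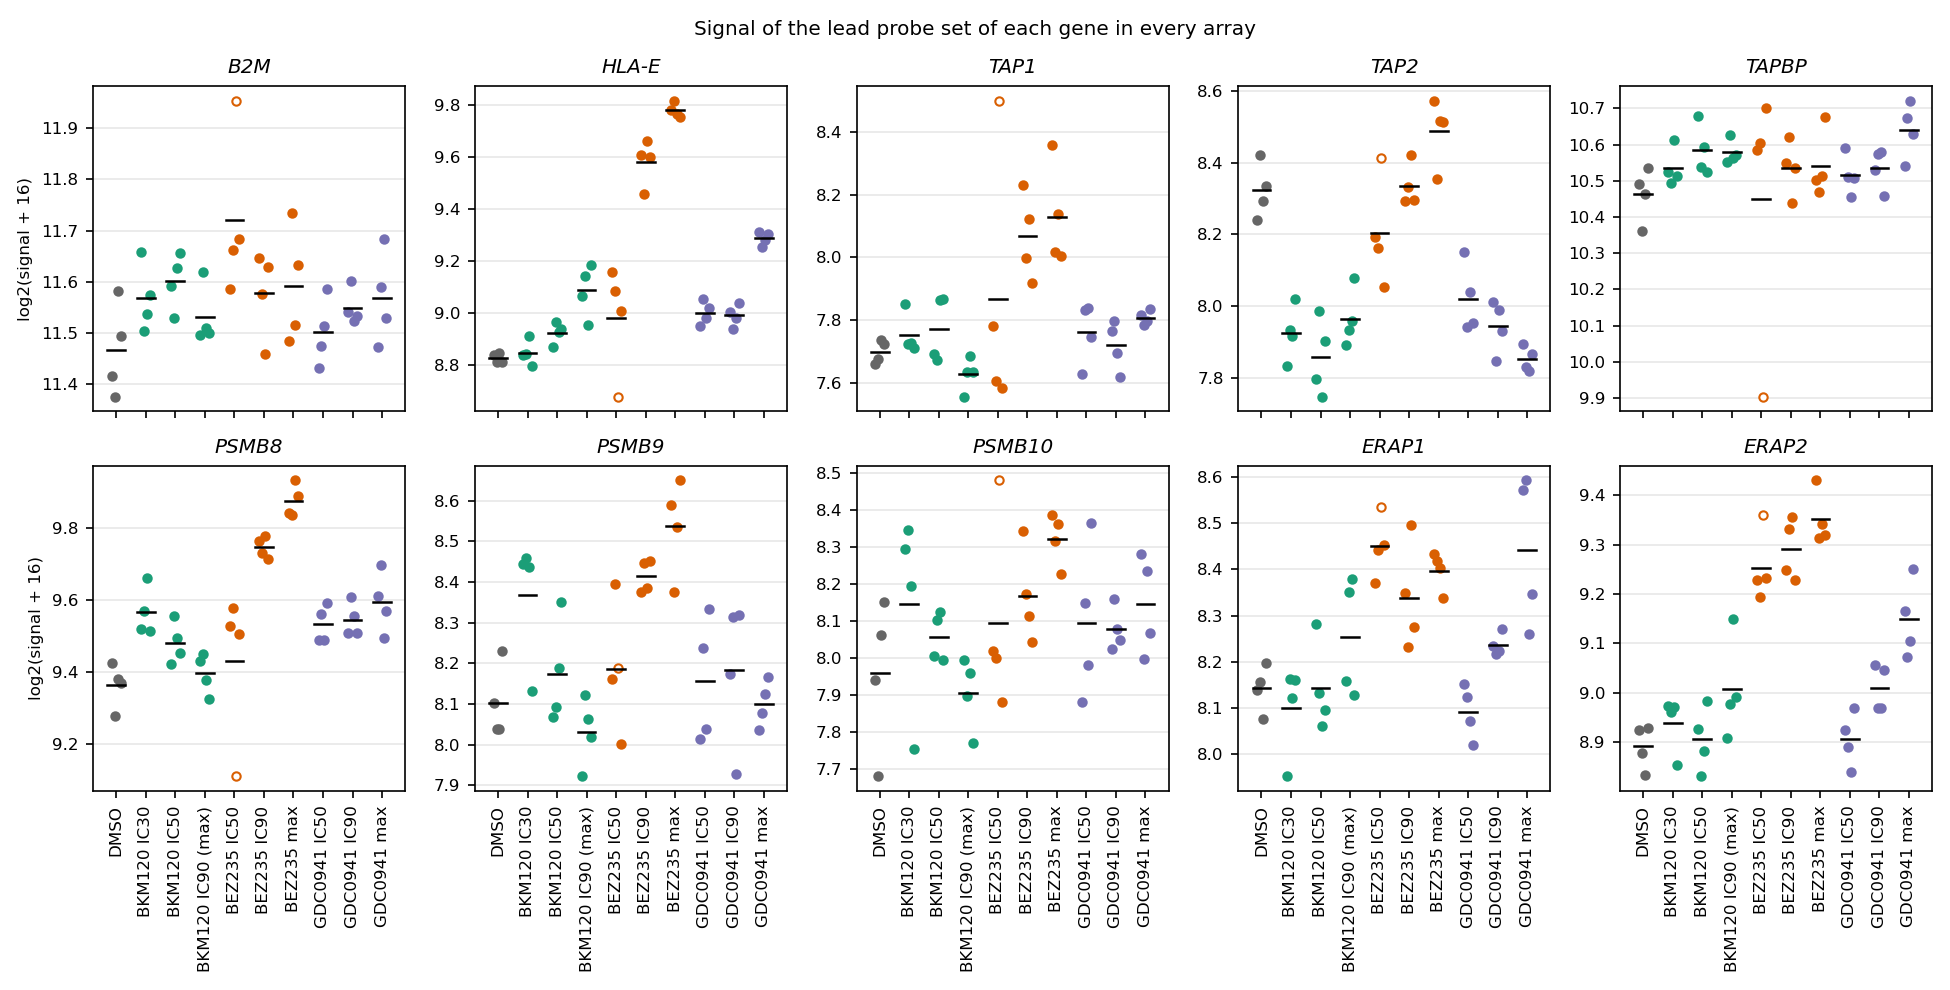
Log2(signal + 16) of the lead probe set of each of the 10 genes (panels, each with its own vertical range) in all 40 arrays; points are arrays, black lines are means of 4, and the open circle is BEZ235 IC50 replicate 3, the array with the high ACTB 3′ to 5′ difference. HLA-E and PSMB8 climb through the BEZ235 levels, while TAP2 lies below DMSO in all BKM120 and GDC0941 groups.

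HLA-E (chr6:30489509-30494194), a class I heavy chain that presents leader peptides to the NKG2A receptor of natural killer cells, made the largest change of the 10 lead probe sets. It had 9.78, 9.82, 9.77 and 9.75 at BEZ235 max, against 8.84, 8.81, 8.85 and 8.81 in DMSO. All 4 treated arrays were far above all 4 control arrays, and the rise was 0.95 (1.94-fold, SE 0.064, adjusted p = 4.86e-15). At BEZ235 IC90 it had 9.61, 9.46, 9.66 and 9.60, a rise of 0.75 (adjusted p = 3.02e-12). At GDC0941 max it had 9.31, 9.25, 9.28 and 9.30, a rise of 0.46 (adjusted p = 3.39e-07), and at BKM120 IC90 (max) 9.06, 9.14, 8.95 and 9.18, a rise of 0.26 (adjusted p = 0.00178). These groups too did not overlap with DMSO. At BEZ235 IC50 it had 9.16, 9.08, 8.68 and 9.01, and the lone array below DMSO is the one with the high ACTB difference. The difference there was 0.15 (adjusted p = 0.0519), and with 39 arrays HLA-E rose by 0.26 (adjusted p = 0.000102). At GDC0941 IC50 and IC90 all arrays lay above DMSO with differences of 0.17 and 0.16 (adjusted p = 0.0766 and 0.0667), which passed with 39 arrays (adjusted p = 0.00736 and 0.0071). In the order of means, BEZ235 max, BEZ235 IC90 and GDC0941 max stood apart from their neighbours, and from BKM120 IC90 (max) down to DMSO each group overlapped with the next.

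The other HLA-E probe sets are of a cross-hybridising design that can also read other class I chains, and they shared only part of this. Probe set 200905_x_at rose by 0.36 at BEZ235 IC90 and by 0.50 at BEZ235 max (adjusted p = 2.14e-07), and its difference was -0.018 at GDC0941 max. Probe set 217456_x_at rose by 0.61 at BEZ235 max, with 9.88, 9.86, 9.66 and 9.85 against 9.42, 9.13, 8.98 and 9.27 in DMSO. It fell at GDC0941 max, to 8.72, 8.76, 8.88 and 8.81, by -0.41 (adjusted p = 0.0108), opposite to the lead probe set. It also fell at BEZ235 IC50, by -0.47, or by -0.34 with 39 arrays (adjusted p = 0.0253). At BEZ235 max all 3 probe sets rose, while the rises at GDC0941 max and BKM120 IC90 (max) were seen with the lead probe set alone. With the mean over the 3 probe sets these last differences were 0.012 and -0.011 (adjusted p = 0.891 and 0.904).

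B2M (chr15:44711517-44718145), the light chain, moved little. It had 11.48, 11.73, 11.51 and 11.63 at BEZ235 max, against 11.42, 11.38, 11.58 and 11.49 in DMSO, groups that overlap (difference 0.13, 95% interval 0.0016 to 0.25, adjusted p = 0.0852). That difference passed with 39 arrays (adjusted p = 0.0361), with the mean over probe sets (0.15, adjusted p = 0.0228), without DMSO replicate 3 (adjusted p = 0.0351) and without BEZ235 max replicate 1 (adjusted p = 0.0396). B2M rose by 0.25 at BEZ235 IC50 (adjusted p = 0.00109), where its values were 11.59, 11.66, 11.95 and 11.68 and the highest is the doubted array. With 39 arrays the rise was 0.18 (adjusted p = 0.011), and in the fit of 39 arrays a second probe set, 216231_s_at, stood 0.21 above DMSO (adjusted p = 0.00379). Quantile normalization ended the B2M call at BEZ235 IC50 (difference 0.011, adjusted p = 0.857), and so did a fit of only the groups compared. For the lead probe set the 7 other treatments differed from DMSO by 0.035 to 0.13, with no call. Probe set 216231_s_at made no call against DMSO with all arrays. With 39 arrays it also rose at BEZ235 IC90 (0.21, adjusted p = 0.000985) and BEZ235 max (0.17, adjusted p = 0.0056). Its rises at GDC0941 max (0.15, adjusted p = 0.0207) and BKM120 IC50 (0.15, adjusted p = 0.0375) passed in that fit as well. The remaining BKM120 and GDC0941 levels gave it no call.

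TAP2 (chr6:32821831-32838739), a subunit of the peptide transporter, was the only one of the 10 genes whose lead probe set fell in any comparison with DMSO in the fit of 40 arrays. It fell at all 3 levels of BKM120 and all 3 of GDC0941. It had 7.80, 7.99, 7.75 and 7.90 at BKM120 IC50, against 8.24, 8.42, 8.29 and 8.34 in DMSO. It had 7.89, 7.83, 7.82 and 7.87 at GDC0941 max, the lowest mean of the 10 groups. Each of the 6 groups lay wholly below DMSO. The falls were -0.40, -0.47 and -0.36 through the BKM120 levels (adjusted p = 8.09e-05, 7.73e-06 and 0.00013). They were -0.30, -0.38 and -0.47 through the GDC0941 levels (adjusted p = 0.00303, 0.000111 and 1.3e-06). BEZ235 gave another picture: TAP2 had 8.57, 8.35, 8.52 and 8.51 at max, where it rose by 0.17 with 1 array inside the DMSO range (adjusted p = 0.0461). That call ended in 8 of 19 alternatives, among them no filter and a fit without DMSO replicate 1, 3 or 4 or without BEZ235 max replicate 1, 3 or 4. At BEZ235 IC90 the difference was 0.012, and at IC50 -0.12 (adjusted p = 0.183), or a fall of -0.19 with 39 arrays (adjusted p = 0.0247). Among the dimmer TAP2 probe sets, 204770_at fell at BKM120 IC30, GDC0941 IC90 and GDC0941 max by -0.36, -0.32 and -0.34. Probe sets 204769_s_at (-0.17 to 0.18) and 208428_at (-0.031 to 0.30) made no call in any comparison with DMSO. With the mean over all TAP2 probe sets, the falls at BKM120 IC50 and IC90 (max) and at GDC0941 IC50 missed the threshold (adjusted p = 0.315, 0.0723 and 0.195).

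TAP1 (chr6:32845209-32853704), its other subunit, rose under BEZ235 only at IC90 and max. It had 8.36, 8.02, 8.14 and 8.01 at BEZ235 max and 8.23, 8.0, 8.12 and 7.92 at BEZ235 IC90, against 7.66, 7.68, 7.74 and 7.72 in DMSO. Neither group overlapped with DMSO, and the rises were 0.43 (adjusted p = 0.0016) and 0.37 (adjusted p = 0.00682). At BEZ235 IC50 the values were 7.78, 7.61, 8.50 and 7.58, so that the doubted array alone held the mean up. The difference there was 0.17, and -0.042 with 39 arrays (adjusted p = 0.705). In the 6 BKM120 and GDC0941 groups TAP1 differed from DMSO by -0.070 to 0.11 and made no call. TAP1 has 1 probe set on this array, as do PSMB8, PSMB9 and PSMB10, so no second reading was at hand for these genes.

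TAPBP (chr6:33299694-33314078), the bridge of the loading complex, made no call in the fit of 40 arrays. It had 10.54, 10.67, 10.72 and 10.63 at GDC0941 max, all above the 10.49, 10.36, 10.46 and 10.54 of DMSO (difference 0.18, adjusted p = 0.113). With 39 arrays that difference passed (adjusted p = 0.0025). At BEZ235 IC50 TAPBP had 10.58, 10.60, 9.90 and 10.70, the doubted array being the lowest of all 40. The difference of -0.015 became a rise of 0.17 without it (adjusted p = 0.0106). At BEZ235 max the difference was 0.077 (95% interval -0.10 to 0.26). The dimmer probe set 1555565_s_at made no call against DMSO with all arrays (-0.047 to 0.23). With 39 arrays it rose at BEZ235 max (0.23, adjusted p = 0.0407), and no other treatment gave it a call.

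PSMB8 (chr6:32840717-32844679), the chymotrypsin-like immunoproteasome subunit, rose in 5 of 9 treatments. It had 9.84, 9.84, 9.93 and 9.89 at BEZ235 max and 9.77, 9.73, 9.78 and 9.72 at BEZ235 IC90, against 9.43, 9.28, 9.38 and 9.37 in DMSO. The rises were 0.51 (1.43-fold, SE 0.0642, adjusted p = 2.1e-08) and 0.38 (adjusted p = 5.32e-06), and the means of BEZ235 max and BEZ235 IC90 stood apart from every group below them. Smaller rises came at GDC0941 max (0.23, adjusted p = 0.00413), BKM120 IC30 (0.20, adjusted p = 0.0262) and GDC0941 IC90 (0.18, adjusted p = 0.0399). The last ended in 9 of 19 alternatives, leaving out any array of its own group or DMSO replicate 2, 3 or 4 among them. The BKM120 IC30 rise ended without DMSO replicate 2 or without its own replicate 2 or 3 (highest adjusted p = 0.108). At BEZ235 IC50 the difference was 0.068, and PSMB8 rose by 0.17 with 39 arrays (adjusted p = 0.00464). The difference of 0.17 at GDC0941 IC50 (adjusted p = 0.0826) also passed with 39 arrays (adjusted p = 0.00649) and with only the groups compared (adjusted p = 0.0445).

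PSMB9 (chr6:32854192-32859851), the immunoproteasome subunit that takes the place of PSMB6, had 8.59, 8.38, 8.53 and 8.65 at BEZ235 max, against 8.10, 8.04, 8.04 and 8.23 in DMSO. It rose by 0.44 there (adjusted p = 0.000103) and by 0.31 at BEZ235 IC90 (adjusted p = 0.00411), with no overlap with DMSO. At GDC0941 max the difference was -0.0015 (95% interval -0.18 to 0.18). At BKM120 IC30 it had 8.44, 8.46, 8.44 and 8.13, and 1 array lay within the DMSO range. The rise of 0.27 (adjusted p = 0.0387) ended with no filter and without DMSO replicate 1, 2 or 3 or BKM120 IC30 replicate 1, 2 or 3 (highest adjusted p = 0.118).

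PSMB10 (chr16:67934506-67936850), the trypsin-like subunit, was the noisiest of the 3, with an SD of 0.204 among the 4 DMSO arrays. It had 8.38, 8.32, 8.36 and 8.23 at BEZ235 max, all above the 7.94, 7.68, 8.06 and 8.15 of DMSO. It rose by 0.36 (adjusted p = 0.00824), and without DMSO replicate 2 the rise of 0.27 missed the threshold (adjusted p = 0.0599). No other treatment gave a call, with differences between -0.054 and 0.21. At BEZ235 IC50 the difference of 0.14 was 0.0079 with 39 arrays.

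ERAP2 (chr5:96875984-96919716), a trimming aminopeptidase, rose at every BEZ235 level. It had 9.23, 9.19, 9.36 and 9.23 at BEZ235 IC50, against 8.92, 8.88, 8.83 and 8.93 in DMSO. It had 9.25, 9.33, 9.36 and 9.23 at BEZ235 IC90 and 9.43, 9.31, 9.34 and 9.32 at BEZ235 max. All 12 BEZ235 arrays were above all 4 DMSO arrays. The rises were 0.36 (0.33 with 39 arrays), 0.40 and 0.46 (adjusted p = 1.81e-06, 1.16e-07 and 5.2e-09). At GDC0941 max ERAP2 rose by 0.26 (adjusted p = 0.000217), and no level of BKM120 passed the test in the main fit. With quantile normalization BKM120 IC90 (max) passed (0.15, adjusted p = 0.0322). With 39 arrays the dimmer probe set 227462_at rose at BKM120 IC50 (0.22, adjusted p = 0.0309). At BKM120 IC30 and IC90 (max) that probe set had -0.020 and -0.097, with no call. Probe sets 227462_at and 235104_at rose by 0.38 and 0.50 at BEZ235 max. Probe set 1554273_a_at made no call in the 9 comparisons, with differences from -0.28 to 0.13. With the mean over ERAP2 probe sets the rises at BEZ235 IC50 and GDC0941 max missed the threshold (adjusted p = 0.448 and 0.38).

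ERAP1 (chr5:96760813-96935854), the partner aminopeptidase, had 8.43, 8.42, 8.40 and 8.34 at BEZ235 max and 8.57, 8.59, 8.26 and 8.35 at GDC0941 max, against 8.14, 8.16, 8.08 and 8.20 in DMSO. It rose by 0.25 and 0.30 in these groups (adjusted p = 0.00323 and 0.000976), and by 0.31 and 0.20 at BEZ235 IC50 and IC90 (adjusted p = 0.000854 and 0.0233). With 39 arrays the BEZ235 IC50 rise was 0.28 (adjusted p = 0.00259). The IC90 rise ended without DMSO replicate 3 or its own replicate 3. Much larger rises came from dimmer ERAP1 probe sets. Probe set 214012_at had 7.17, 6.97, 7.0 and 7.09 at BEZ235 max, against 5.75, 5.80, 5.77 and 5.44 in DMSO, a rise of 1.37 (adjusted p = 1.34e-09). Through the BEZ235 levels it rose by 0.75, 1.16 and 1.37, at GDC0941 max by 0.77 and at BKM120 IC90 (max) by 0.47. Probe set 210385_s_at rose by 0.72, 0.67 and 0.95 through the BEZ235 levels. With 39 arrays the IC50 rises of these probe sets were 0.87 and 0.57. Probe set 209701_at, in contrast, fell by -0.34 at BEZ235 IC50 (-0.27 with 39 arrays, adjusted p = 0.00452) and rose by 0.20 at BEZ235 max. The ERAP1 probe sets therefore gave changes of different size, and at BEZ235 IC50 of different sign. Which transcripts each one reads was not analysed here.

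**Figure D2:**
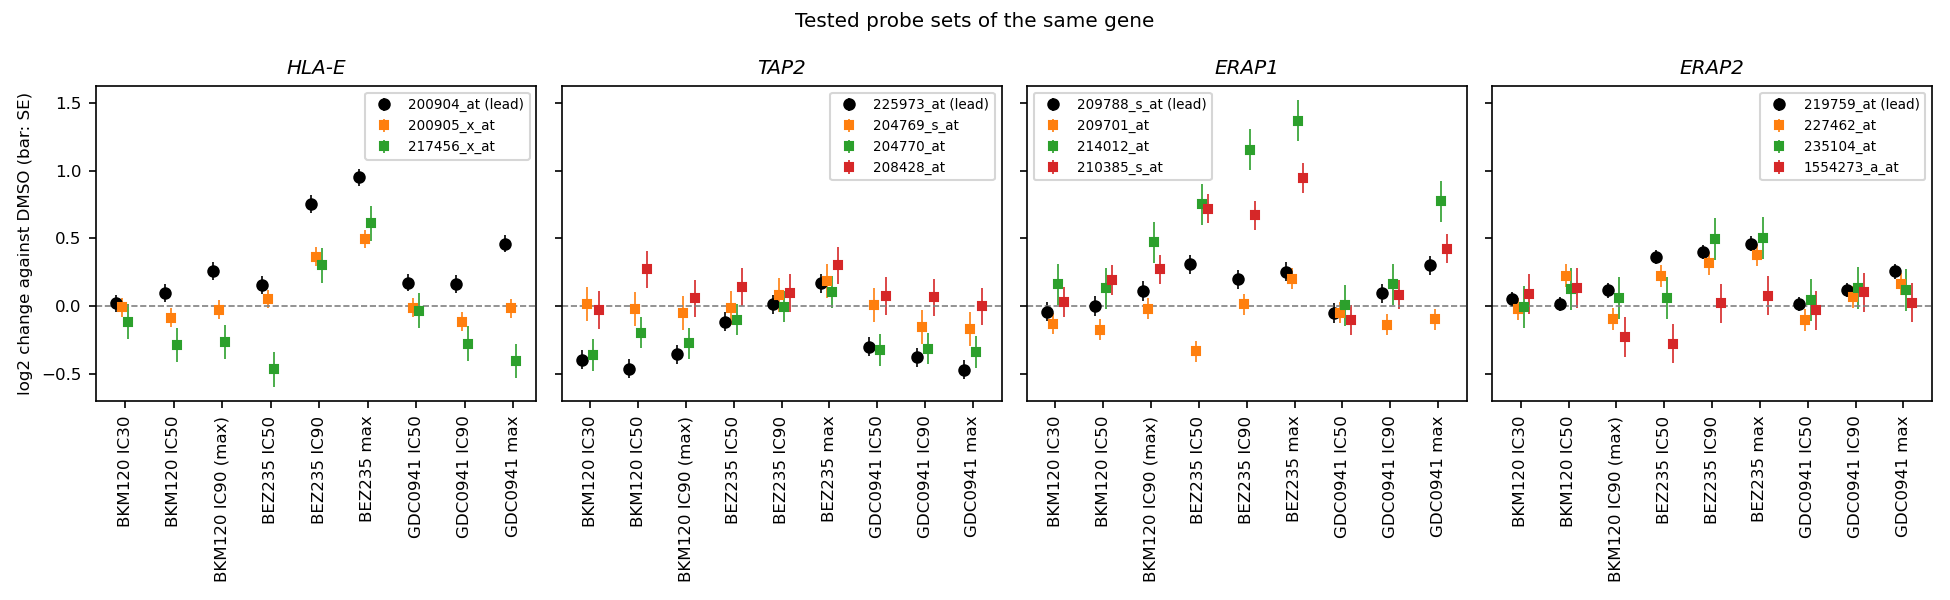
Log2 change against DMSO (vertical axis, bars are SE from the model) of each tested probe set of HLA-E, TAP2, ERAP1 and ERAP2 in the 9 treatments (horizontal axis). Black circles are lead probe sets. Probe set 214012_at of ERAP1 reaches 1.37 at BEZ235 max, and 217456_x_at of HLA-E lies at -0.41 at GDC0941 max, where the lead probe set is at 0.46.

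Over the whole set, BEZ235 gave the most calls, and the count is read beside the share of all 12402 genes called by the same rule. At BEZ235 max 8 of the 10 genes rose and 0 fell, against 31.7% of genes that rose and 24.2% that fell. The median change of the 10 was 0.40 and that of all genes 0.043. With 39 arrays 9 rose and 0 fell there, beside 35.4% and 27.5% of all genes. At BEZ235 IC90 6 rose and 0 fell (background 29.9% and 23%, median 0.26). At BEZ235 IC50 3 rose and 0 fell (25% and 18.2%, median 0.15). With 39 arrays 6 rose and 1 fell at that level, beside 22.8% and 19.3% of all genes. At GDC0941 max 4 rose and 1 fell (24.4% and 17.5%, median 0.18), at IC90 1 rose and 1 fell (14.1% and 9.15%, median 0.088), and at IC50 0 rose and 1 fell (8.69% and 5.25%, median 0.053). At BKM120 IC30 2 rose and 1 fell (11.6% and 7.26%, median 0.063), at IC50 0 rose and 1 fell (11.2% and 6.47%, median 0.086), and at IC90 (max) 1 rose and 1 fell (16.3% and 16.4%, median 0.049). For BKM120 and the lower levels of GDC0941 the count of rises, 0 to 2 of 10, is near the background. The 9 comparisons share the 4 DMSO arrays. Because the 10 genes were chosen with earlier results of these data known, the background shares are context and not a test.

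**Figure D3:**
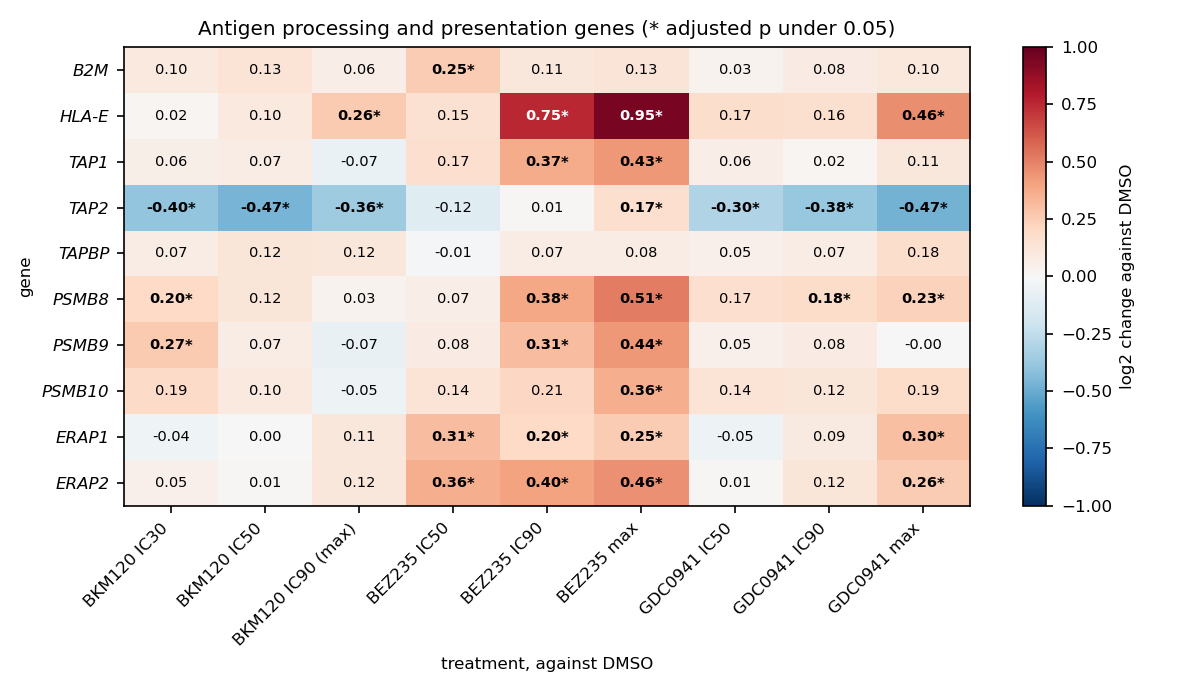
Log2 change against DMSO of the 10 lead probe sets (rows) in the 9 treatments (columns), with colour from blue for lower to red for higher and an asterisk where the adjusted p was under 0.05. The BEZ235 max column holds 8 rises, and TAP2 is blue in the BKM120 and GDC0941 columns.

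Differences between the compounds were tested directly in 7 pairs of groups whose levels share a name, BKM120 IC90 (max) standing for IC90. The labels also name that BKM120 level max, and it was not tested against the max levels of the other compounds. Between BEZ235 max and GDC0941 max, 6 genes were higher with BEZ235 and 0 lower (background 17.6% and 16.7%). TAP2 differed most, by 0.64 (95% interval 0.50 to 0.78, adjusted p = 4.46e-09), with no overlap. HLA-E was 0.49 higher with BEZ235 (adjusted p = 1.37e-07), PSMB9 0.44, TAP1 0.32, PSMB8 0.28 and ERAP2 0.20. The TAP1 call ended without BEZ235 max replicate 1 or 3 or GDC0941 max replicate 2 (highest adjusted p = 0.127). ERAP1 (-0.046, interval -0.19 to 0.10), B2M (0.023, interval -0.10 to 0.15), TAPBP (-0.10, interval -0.28 to 0.079) and PSMB10 (0.18, interval -0.057 to 0.41) did not pass. ERAP1 was 0.27 higher with BEZ235 when its probe sets were averaged (adjusted p = 0.000347), so its direction depends on the probe sets taken.

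At IC90 the same 6 genes, HLA-E, TAP1, TAP2, PSMB8, PSMB9 and ERAP2, were higher with BEZ235 than with GDC0941, and 0 were lower (background 21.9% and 19%). HLA-E differed by 0.59 (adjusted p = 2.47e-09) and TAP2 by 0.39 (adjusted p = 2.88e-05). PSMB9 (0.23, adjusted p = 0.0414) lost its call in 7 of 19 alternatives, each BEZ235 IC90 array left out among them, and TAP1 (0.35) without BEZ235 IC90 replicate 1 (adjusted p = 0.0622). These 6 genes were also lower with BKM120 IC90 (max) than with BEZ235 IC90, where 6 fell and 0 rose (background 25.7% and 17.6%). The differences were -0.49 for HLA-E, -0.44 for TAP1, -0.38 for PSMB9, -0.37 for TAP2, -0.35 for PSMB8 and -0.28 for ERAP2. With 39 arrays PSMB10 was added (-0.26, adjusted p = 0.0271). ERAP1, with its probe sets averaged, was also higher with BEZ235 IC90 than with GDC0941 IC90 (0.35, adjusted p = 7.04e-06), and lower with BKM120 IC90 (max) than with BEZ235 IC90 (-0.20, adjusted p = 0.00491). Averaging ended the ERAP2 call between BEZ235 and GDC0941 (adjusted p = 0.217). The pairs share the BEZ235 IC90 arrays. Between BKM120 IC90 (max) and GDC0941 IC90 0 of 10 genes differed by limma in the fit of 40 arrays, while 11.2% of all genes were higher and 17.3% lower. The widest interval was that of PSMB10, -0.41 to 0.061. PSMB8 stood at -0.15 (interval -0.28 to -0.019, adjusted p = 0.0854), with unadjusted p under 0.05 in 1 of 10 genes, and was called with 39 arrays (adjusted p = 0.00942). ERAP1 was called with the mean over probe sets (0.15, adjusted p = 0.0395).

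**Figure D4:**
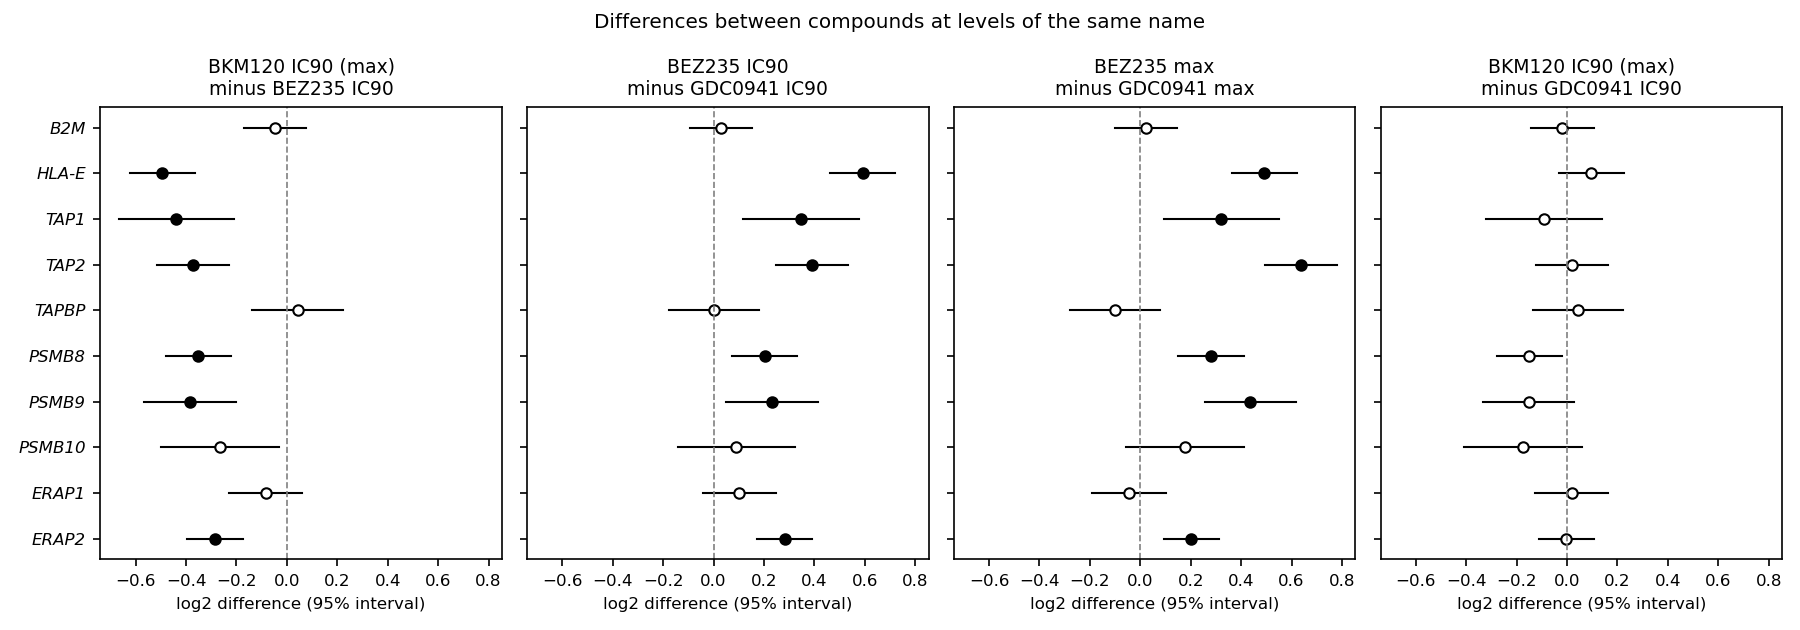
Log2 differences between compounds with 95% intervals (horizontal axis) for the 10 genes (rows) in 4 pairs of groups; filled points have an adjusted p under 0.05. BEZ235 is higher than either other compound for HLA-E, TAP1, TAP2, PSMB8, PSMB9 and ERAP2, and no point is filled between BKM120 IC90 (max) and GDC0941 IC90.

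At IC50 the contrast was narrower. BKM120 and GDC0941 differed in 0 of the 10 genes (background 0.25% higher and 0.0726% lower), with 1 gene, TAP2, at an unadjusted p under 0.05 (-0.16, interval -0.31 to -0.021). TAP2, ERAP1 and ERAP2 were lower with BKM120 than with BEZ235, by -0.35, -0.31 and -0.35, so that 3 fell and 0 rose (background 15.2% and 14.2%). With 39 arrays these differences were -0.28, -0.28 and -0.31, and HLA-E joined them (-0.16, adjusted p = 0.0186). ERAP2 turned to 0.047 with the mean over probe sets (adjusted p = 0.63), and the TAP2 call ended (-0.081, adjusted p = 0.4). With only the groups compared, the TAP2 and ERAP1 calls ended. BEZ235 was above GDC0941 in 4 genes and below in 0 (background 16.9% and 14.6%): ERAP1 by 0.36, ERAP2 by 0.35, B2M by 0.22 and TAP2 by 0.18. With 39 arrays ERAP1 and ERAP2 differed by 0.33 and 0.31, and the calls of B2M and TAP2 ended (adjusted p = 0.052 and 0.207). The B2M and TAP2 calls also ended with only the groups compared. Averaging probe sets ended the call of ERAP2 (0.089, adjusted p = 0.317) and that of TAP2.

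Within each compound the highest level was set against the lowest. From BEZ235 IC50 to max HLA-E was higher by 0.80, PSMB8 by 0.44, PSMB9 by 0.35 and TAP2 by 0.28, 4 rises and 0 falls (background 19.3% and 17.3%). With 39 arrays these were 0.70, 0.34, 0.35 and 0.35, and TAP1 (0.47, adjusted p = 5.99e-06) and PSMB10 (0.36, adjusted p = 0.00932) were added. With only the groups compared, the PSMB9 and TAP2 calls ended (adjusted p = 0.0753 and 0.118). The lead probe sets of ERAP1 and ERAP2 had -0.053 and 0.097 there, with no call. With the mean over probe sets ERAP1 rose by 0.27 (adjusted p = 0.000315) and ERAP2 by 0.18 (adjusted p = 0.0268). From GDC0941 IC50 to max ERAP1, HLA-E and ERAP2 rose by 0.35, 0.29 and 0.24 and 0 genes fell (background 15.2% and 12.4%). HLA-E turned to -0.030 with the mean over probe sets (adjusted p = 0.75) and the ERAP2 call ended (adjusted p = 0.276). With 39 arrays TAP2 fell by -0.17 (adjusted p = 0.0311) and TAPBP rose by 0.13 (adjusted p = 0.0415). From BKM120 IC30 to IC90 (max) 1 gene rose, HLA-E by 0.24, and 2 fell, PSMB9 by -0.34 and PSMB8 by -0.17 (background 13.6% and 18.7%). The PSMB8 fall ended in 8 of 19 alternatives, quantile normalization among them. Without BKM120 IC30 replicate 4, PSMB10 fell as well, by -0.37 (adjusted p = 0.0104). The BKM120 group with the highest mean was thus IC30 for PSMB8 and PSMB9, and IC90 (max) for HLA-E.

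The rest of the pathway was read from lists, whose counts stand beside the share of all genes that rose and fell: 31.7% and 24.2% at BEZ235 max, 24.4% and 17.5% at GDC0941 max, and 16.3% and 16.4% at BKM120 IC90 (max). The median of all genes was 0.043, 0.034 and -0.0025 at these levels. These lists, too, were chosen with earlier results of these data known. Of 8 tested class I chains other than HLA-E, 5 rose and 3 fell at BEZ235 max (median 0.35), 5 and 3 at GDC0941 max (median 0.29), and 4 and 2 at BKM120 IC90 (max) (median 0.21). FCGRT, the neonatal Fc receptor, which pairs with B2M and binds antibody, rose by 1.09 at BEZ235 max, 1.59 at GDC0941 max and 1.08 at BKM120 IC90 (max). MR1, which presents vitamin metabolites, rose by 0.47 at BEZ235 max and 0.54 at GDC0941 max. HLA-B, a classical class I chain, rose by 0.41, 0.31 and 0.34 at these 3 levels. MICA and MICB, stress ligands of the NKG2D receptor that need no B2M, fell at all 3: MICA by -0.28, -0.66 and -0.47 and MICB by -0.34, -0.45 and -0.31. HLA-B, HLA-C and HLA-G were read with cross-hybridising probe sets, so signal may be shared among these near-identical genes.

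Of 8 loading chaperones, 3 rose and 4 fell at BEZ235 max (median -0.092, background 31.7% and 24.2%). TAPBPL (TAPBPR), a tapasin relative that edits peptides, had 7.71, 7.54, 7.54 and 7.45 at BEZ235 max, against 6.58, 6.65, 6.46 and 6.67 in DMSO, a rise of 0.97 (adjusted p = 2.18e-10). It also rose at GDC0941 max (0.47) and BKM120 IC90 (max) (0.37). CALR (calreticulin), the lectin chaperone of the loading complex, had 8.0, 7.61, 7.65 and 7.93 at BEZ235 max, against 9.01, 9.10, 9.09 and 9.03 in DMSO. CALR fell by -1.26 there, by -0.67 at GDC0941 max and by -0.41 at BKM120 IC90 (max). HSPA5 (BiP), the general chaperone of the endoplasmic reticulum, fell by -1.05, -0.40 and -0.29 at the same levels. At BEZ235 max, then, the tapasin relative and several class I chains were higher while these folding chaperones were lower. The list had 1 rise and 2 falls both at GDC0941 max (median 0.012) and at BKM120 IC90 (max) (median -0.0016).

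Of 9 tested constitutive proteasome subunits, activators and assembly factors, 1 rose and 5 fell at BEZ235 max (median -0.16, background 31.7% and 24.2%), 0 and 2 at GDC0941 max (median -0.071), and 0 and 1 at BKM120 IC90 (max) (median -0.11). PSMB6, the counterpart of PSMB9, fell by -0.29 at BEZ235 max (adjusted p = 2.24e-06). PSMB5, the counterpart of PSMB8, differed by -0.16 (adjusted p = 0.0667), and PSMB7, that of PSMB10, by 0.11 (adjusted p = 0.143). PSMB7 rose by 0.20 at BEZ235 IC50 (adjusted p = 0.0093), in the fit that holds the doubted array. PSME3, which encodes the nuclear activator PA28gamma, fell by -0.70, and PSMG2, an assembly chaperone, rose by 0.37. Among 8 other peptidases 1 rose and 3 fell at BEZ235 max (median -0.014), TPP2, a cytosolic peptidase, rising by 0.41 and IDE, the insulin-degrading enzyme, falling by -0.26. In that list 0 rose and 1 fell at GDC0941 max (median -0.061), and 1 rose and 2 fell at BKM120 IC90 (max) (median -0.10).

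**Figure D5:**
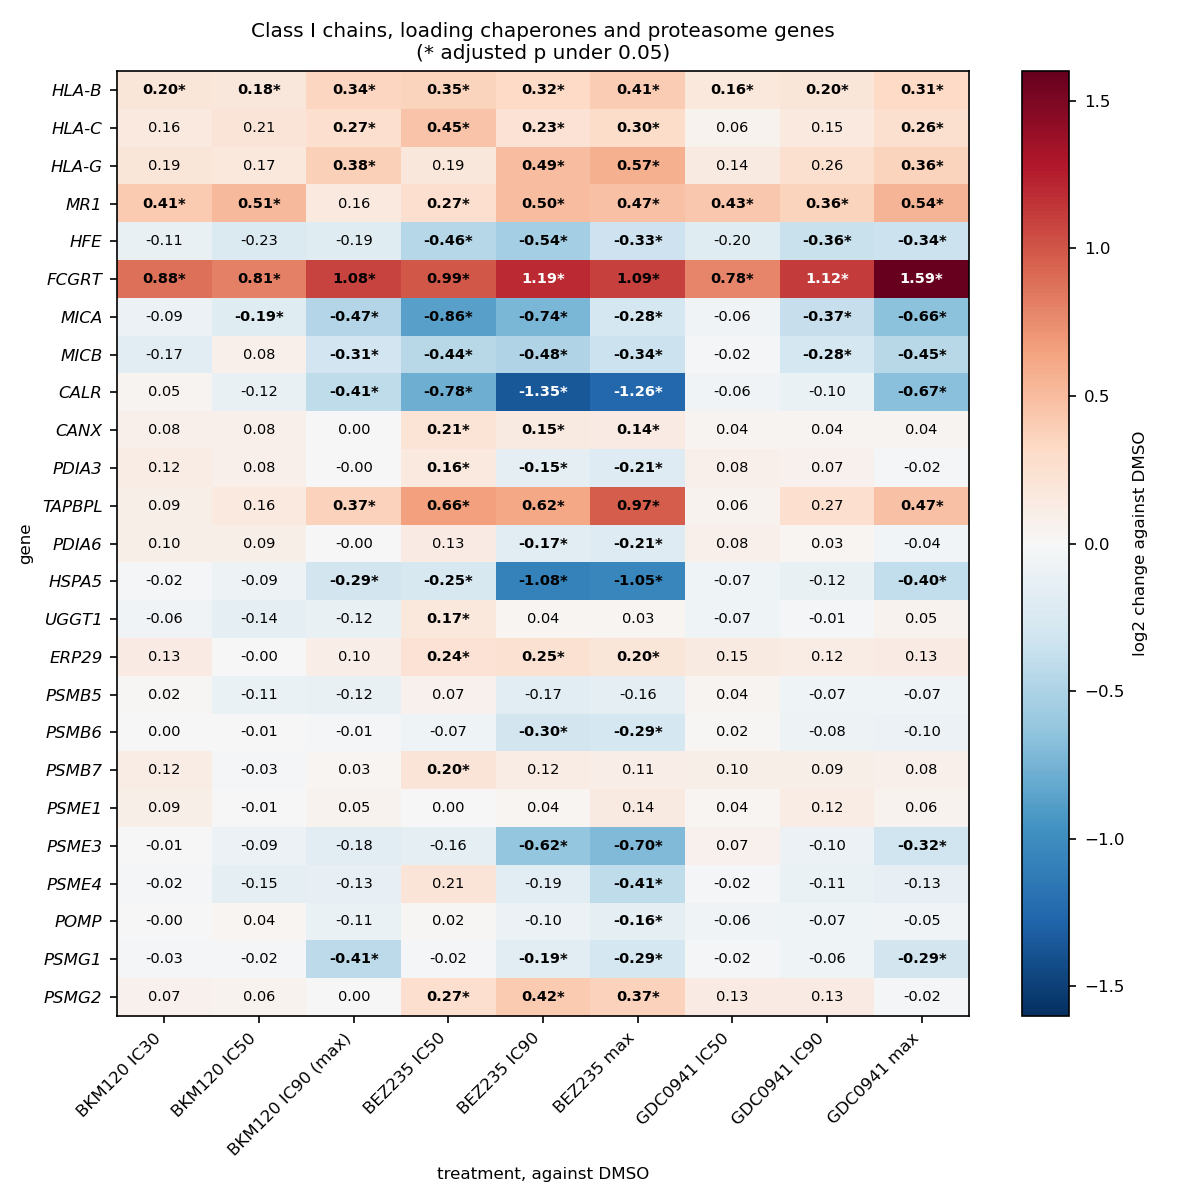
Log2 change against DMSO of all 25 tested class I chains, loading chaperones and proteasome genes (rows, in the order of their lists) in the 9 treatments (columns), with an asterisk where the adjusted p was under 0.05. CALR and HSPA5 are dark blue in the BEZ235 IC90 and max columns, and FCGRT is red in every column.

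NLRC5, the coactivator of class I genes, rose in all 9 comparisons with DMSO. It had 5.62, 5.96, 6.33 and 5.94 at BEZ235 max, 6.13, 6.03, 5.98 and 5.83 at GDC0941 max and 5.68, 5.91, 5.84 and 5.75 at BKM120 IC90 (max), against 5.51, 5.14, 5.30 and 5.34 in DMSO. The rises were 0.64, 0.67 and 0.47 at these levels, and 0.43, 0.32, 0.58, 0.68, 0.54 and 0.58 at the lower levels of BKM120, BEZ235 and GDC0941. The BEZ235 IC50 rise rests in part on the doubted array, which had 6.27 where the other 3 had 5.72 to 5.89. IRF1, the interferon-induced factor that binds ISRE letters, made no call: its differences from DMSO ran from -0.22 at BEZ235 IC90 (adjusted p = 0.0525) to 0.038 at BEZ235 IC50. Of the 27 tested genes of interferon signalling and class I transcription, 8 rose and 5 fell at BEZ235 max (median 0.016, background 31.7% and 24.2%), 5 and 1 at GDC0941 max (median 0.059, background 24.4% and 17.5%) and 7 and 2 at BKM120 IC90 (max) (median 0.016, background 16.3% and 16.4%). The shares at BEZ235 max are near those of all genes.

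The members also varied together to different degrees. Over the 10 group means, PSMB8 and PSMB10 had a Pearson r of 0.91, PSMB8 and TAP1 0.87, HLA-E and TAP1 0.86, ERAP1 and ERAP2 0.88, and TAP2 and TAPBP -0.56. These are descriptions over 10 points that share arrays within a group. The genes most like HLA-E over these means were ZNF514 (r = 0.99), SLAMF7 and BCL7A, the most like ERAP2 was DPYSL4 (0.99), the most like TAP1 was ADPRM (0.99), the most like PSMB8 was ZNF687-AS1 (0.98), and the most like TAP2 was ZNF274 (0.98). For TAPBP the closest gene reached 0.92 (CDC14B), and for PSMB9 0.92 (GOLGA2P5).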

How the data were processed

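Total RNA (50 ng per sample, amplified) of A2058 cells was measured on 40 one-colour arrays, 4 per group. The deposited intensity values are MAS5 signals on a linear scale, per the submitters' processing notes, with no MAS5 version given. In each column the mean after trimming 2% at either end was 150, so the authors had scaled the arrays to a common level. From these values log2(signal + 16) was computed, a pseudocount that shrinks the changes of dim probe sets. Of 54675 probe sets, 41091 carry 1 gene symbol in the platform annotation, 1801 carry several and 11721 none, and 62 are controls; only the first were used. Probe sets whose mean lay under the 40th percentile (log2 4.687) were left out of the tests.

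A cell-means model over 10 groups (limma 3.58.1 in R 4.3.3, empirical Bayes with a variance trend, 30 residual degrees of freedom) gave 19 comparisons: 9 with DMSO, 7 between compounds and 3 between levels. P-values were adjusted by Benjamini-Hochberg within each. The code was tested on simulated data. The number of arrays limits the precision. The members and lists were chosen with earlier results of these data known. All 10 members were named. From each list up to 4 genes were named per comparison with DMSO, those with the largest called changes and groups that do not overlap, and a gene so named was also given in others. NLRC5, IRF1, PSMB5, PSMB6 and PSMB7 could always be named. Likeness is the highest Pearson r over group means. No pair of arrays held near-identical values.

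Replicate numbers recur in every group, but in 0 of 19 comparisons did all same-numbered pairs deviate together (correlations from -0.323 to 0.266), so the main model has no replicate term. The alternatives were pseudocounts of 1 and 64, no filter, a filter at the 60th percentile, quantile normalization, 1 probe set per gene, the mean over a gene's probe sets, only the groups compared, 39 arrays, no variance trend, a replicate block, and each array of the compared groups left out in turn. Gene lists refitted with 39 arrays were added after seeing the data. Some genes of the lists are not reported here.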

Additional observations from a re-analysis of the deposited data

Results flagged for a closer look

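Of 100 groups of 4 arrays, 6 held a value that stood apart by Dixon's ratio (above its 95% critical value), where chance gives about 5%. TAPBP was 9.90 in BEZ235 IC50 replicate 3, against 10.58 to 10.70 in the other 3 arrays of its group, and PSMB8 was 9.11 there, against 9.51 to 9.58. That array also has the high ACTB 3′ to 5′ difference, and the part of that difference in these values was not tested. PSMB9 was 8.13 and ERAP2 8.85 in BKM120 IC30 replicate 4, against 8.44 to 8.46 and 8.96 to 8.97 in the rest of that group. TAP1 was 7.85 in BKM120 IC30 replicate 1, against 7.71 to 7.73. B2M was 11.6 in BKM120 IC90 (max) replicate 2, against 11.50 to 11.51.

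TAP2 differed between compounds at the level named max: its change from DMSO was 0.17 with BEZ235 and -0.47 with GDC0941. The direct test gave a difference of 0.64 (limma, adjusted p = 4.46e-09), with all 4 BEZ235 arrays above all 4 GDC0941 arrays. Both changes are measured against the same DMSO arrays, and the direct test does not use these.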

How the results depend on the processing

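Of 3610 values of single genes under alternatives, 3476 kept their direction and side of the threshold, 80 lost a call, 47 gained one and 7 reversed; a change of sign between values with no call on either side was not counted as reversed. With the mean over probe sets HLA-E turned to -0.011 (BKM120 IC90 (max) against DMSO) and -0.030 (GDC0941 max against IC50), ERAP2 to 0.047 (BKM120 against BEZ235 at IC50), and ERAP1 to 0.27 both for BEZ235 max against GDC0941 max and against BEZ235 IC50; that mean weighs in the dimmer probe sets. TAPBP at BEZ235 IC50 against DMSO turned to 0.17 with 39 arrays, and ranged from -0.099 to 0.17 with each array left out in turn. Counts of the 10 genes called also moved. Against DMSO with the mean over probe sets they were 0 for BKM120 IC50, 1 for BKM120 IC90 (max), 0 for GDC0941 IC50 and 3 for GDC0941 max. Between compounds the same mean gave 1 for BKM120 against BEZ235 and 2 for BEZ235 against GDC0941 at IC50, 1 for BKM120 against GDC0941 at IC90, and 1 for GDC0941 max against IC50. With only the groups compared they were 3 for GDC0941 IC50 against DMSO, 1 for BKM120 against BEZ235 and 2 for BEZ235 against GDC0941 at IC50, 1 for BKM120 against GDC0941 at IC90, and 2 for BEZ235 max against IC50. With 39 arrays they were 7 for BEZ235 IC50 and 3 for GDC0941 IC50 against DMSO, 2 for BEZ235 against GDC0941 at IC50, 1 for BKM120 against GDC0941 at IC90, and 5 for GDC0941 max against IC50. GDC0941 IC50 against DMSO gave 2 with quantile normalization, and GDC0941 IC90 against DMSO gave 1 with no filter and with no variance trend. The causes were not tested. Leaving out 1 array at a time, the counts against DMSO ranged from 1 to 4 for BKM120 IC30, 1 to 1 for BKM120 IC50, 2 to 2 for BKM120 IC90 (max), 3 to 7 for BEZ235 IC50, 5 to 6 for BEZ235 IC90, 7 to 8 for BEZ235 max, 1 to 1 for GDC0941 IC50, 1 to 2 for GDC0941 IC90 and 5 to 5 for GDC0941 max. The count for BKM120 IC30 was 1 without DMSO replicate 2 or its own replicate 2 or 3. The count for GDC0941 IC90 was 1 without DMSO replicate 2, 3 or 4 or any array of its own. For BEZ235 IC50 it was 7 without replicate 3, and for BEZ235 against GDC0941 at IC50 2 without that array. Between compounds the ranges were 0 to 0 for BKM120 against GDC0941 at IC50 and at IC90, 3 to 4 and 6 to 6 for BKM120 against BEZ235 at IC50 and IC90, 2 to 4 and 4 to 6 for BEZ235 against GDC0941 at IC50 and IC90, and 5 to 6 at max. Between levels they were 2 to 4 for BKM120, 4 to 6 for BEZ235 and 3 to 3 for GDC0941. The replicate numbers were not found to pair the samples, and with the replicate block 188 of 190 single-gene results kept their side; TAP2 lost its call at BEZ235 max against DMSO (7 rises in place of 8) and at BEZ235 against GDC0941 at IC50 (3 in place of 4). Dim probe sets are limited by the pseudocount, and 4 of the 27 by the filter.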

Other observations

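Genes of the class II pathway, which presents peptides from endosomes to CD4 T cells, were also read. Over all genes 31.7% rose and 24.2% fell at BEZ235 max, 24.4% and 17.5% at GDC0941 max, and 16.3% and 16.4% at BKM120 IC90 (max). Of 11 class II genes tested, 8 rose and 0 fell at BEZ235 max (median 0.44), 1 rose and 0 fell at GDC0941 max (median 0.11), and 5 rose and 0 fell at BKM120 IC90 (max) (median 0.34). The invariant chain CD74, which escorts class II molecules, rose by 0.52 at BEZ235 max and by 0.58 at BKM120 IC90 (max), and its difference at GDC0941 max was 0.11 (limma, adjusted p = 0.37). HLA-DMA, a subunit of the class II peptide editor, rose by 0.44, 0.42 and 0.78 at BEZ235 max, GDC0941 max and BKM120 IC90 (max). CTSS (cathepsin S), the protease that trims the invariant chain, rose by 0.48 at BEZ235 max alone of these 3 levels. Compared directly, 5 of the 11 were higher and 0 lower with BEZ235 max than with GDC0941 max (median 0.31, background 17.6% and 16.7%). With BKM120 IC90 (max) 2 were higher and 0 lower than with GDC0941 IC90 (median 0.17, background 11.2% and 17.3%).

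Interferon-stimulated genes moved in both directions. Of 36 tested, 16 rose and 5 fell at BEZ235 max (median 0.21, background 31.7% and 24.2%), and 13 rose and 5 fell at GDC0941 max (median 0.16, background 24.4% and 17.5%). At BKM120 IC90 (max) 10 rose and 8 fell (median 0.024, background 16.3% and 16.4%). RSAD2 (viperin), an antiviral enzyme, rose by 1.02 at BEZ235 max and 0.94 at GDC0941 max. IFIH1 (MDA5), a sensor of double-stranded RNA, rose by 0.99 and 0.30 at these levels. GBP1, an interferon-induced GTPase, fell by -1.03 and -0.89. GBP2, of the same family, fell by -1.14 at BEZ235 max and had a difference of 0.17 at GDC0941 max (adjusted p = 0.159).

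Of the 11 melanocyte markers 6 rose and 2 fell at BEZ235 max (background 31.7% and 24.2%). At GDC0941 max 8 rose and 0 fell (background 24.4% and 17.5%), and at BKM120 IC90 (max) 6 rose and 0 fell (background 16.3% and 16.4%). Of 8 tested epithelial, endothelial and fibroblast markers 2 rose and 2 fell at BEZ235 max, near the shares of all genes. In that list 1 rose and 2 fell at GDC0941 max, and 0 rose or fell at BKM120 IC90 (max). Of the 2 tested immune markers 1 fell at each of these levels.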
